A study of Homo sapiens with 8 samples.

Results

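The genes described here belong to families of glycosyltransferases that start, extend, branch and cap mucin-type O-glycans, and some act mainly on other glycans. They were chosen by gene symbol, as the numbered members of the GALNT, C1GALT1, GCNT, B3GNT, B3GALT, B4GALT, FUT, ST3GAL, ST6GAL and ST6GALNAC families and by no measured value, although the families were picked with earlier results of these data known. The rule found 71 genes among 57736 gene identifiers, and 60 of them were expressed, meaning that 2 or more of the 8 libraries reached a value of 10.

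Total RNA was sequenced from LS174T, a mucus-producing human colon adenocarcinoma line, in which doxycycline switches on a short hairpin RNA. In the ASCL2 line the hairpin is directed at ASCL2, a basic helix-loop-helix transcription factor of intestinal stem cells, and in the WiNTRLINC1 line at the long noncoding RNA WiNTRLINC1. The 4 groups, with 2 libraries each, were ASCL2-line cells given doxycycline at 1 ug/ml for 3 days, ASCL2-line cells grown for 3 days without it, WiNTRLINC1-line cells given doxycycline at the same dose and time, and WiNTRLINC1-line cells grown for 3 days without it. All 4 groups derive from cells that carry a Tet repressor and a vector-borne hairpin, and positive clones were picked by RT-PCR. No cells without a hairpin were given doxycycline, so an effect of the drug and an effect of the hairpin cannot be told apart. In all 8 samples the label for genotype gives the other line's hairpin than the title and source do. The groups here follow the titles. The labels do not say that the 2 libraries of a group came from separate cultures, so the p-values measure the spread between these libraries, which may be technical.

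Mucin-type O-glycosylation begins in the Golgi, where a polypeptide GalNAc-transferase (GALNT) adds N-acetylgalactosamine to serine or threonine. C1GALT1 adds galactose to make core 1, GCNT enzymes add a branch, B3GNT and B4GALT enzymes build N-acetyllactosamine chains, and fucosyltransferases (FUT) and sialyltransferases (ST3GAL, ST6GAL, ST6GALNAC) cap them. In the colon these glycans cover the mucins of goblet cells and carry the Lewis and sialyl-Tn antigens known from tumours, and several of the families also act on N-glycans, glycolipids and proteoglycans.

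The deposited values were whole numbers that behaved as scaled and rounded read counts, and they summed to between 21524463 and 22941231 per library, with 31503 to 33959 gene identifiers above 0. ASCL2 itself had 532 and 586 in the 2 doxycycline libraries of the ASCL2 line, against 2855 and 3373 in its untreated libraries, and 805 and 697 in the doxycycline libraries of the WiNTRLINC1 line, against 2540 and 2034 in the untreated ones. No value for WiNTRLINC1 is reported here. All 10 colon epithelial markers were expressed, and their summed values were 209679 to 231694 and 205582 to 230873 in doxycycline and untreated ASCL2-line cells, and 111751 to 112553 and 136431 to 143449 in doxycycline and untreated WiNTRLINC1-line cells. The lower WiNTRLINC1-line sum lay mostly in KRT18, with 8197 and 7734 in doxycycline cells, against 38977 and 36188 in untreated ones, while KRT8 did not pass the test and KRT19 and KRT20 rose. Of 8 goblet cell markers 7 were expressed, and CLCA1 was under 10 in every library. In the same order, the 8 summed to 11814 to 12898 and 11266 to 12287 in the ASCL2 line. In the WiNTRLINC1 line they summed to 28329 to 31571 and 23872 to 24947. The ASCL2-line sums lay mostly in AGR2 (8847 to 10680) and the WiNTRLINC1-line sums mostly in MUC2 (14085 to 21198). Over all 8 libraries the sums were 94 to 304 for 6 fibroblast markers, 35 to 102 for 5 leukocyte markers and 13 to 33 for 3 endothelial markers. COL1A2, DCN, CD3E and KDR were under 10 in every library. Fewer cells of a type and less RNA per cell cannot be told apart in these bulk libraries.

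Together the 71 genes summed to 55520 and 55600 in doxycycline ASCL2-line cells, against 53024 and 50223 in untreated ones, and to 50893 and 52017 in doxycycline WiNTRLINC1-line cells, against 44555 and 44826 in untreated ones. In both lines the doxycycline libraries lay above the untreated ones. The 11 genes that were not expressed were GALNT8, GALNT13, GALNT14, GALNT16, GALNT17, GCNT4, GCNT7, B3GALT2, FUT5, ST3GAL5 and ST6GALNAC5, and the highest value among them was 12, in B3GALT2. The median of the mean value over the 8 libraries was 550.0 for the 60 expressed members and 232.6 for all 22100 genes tested.

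**Figure D1:**
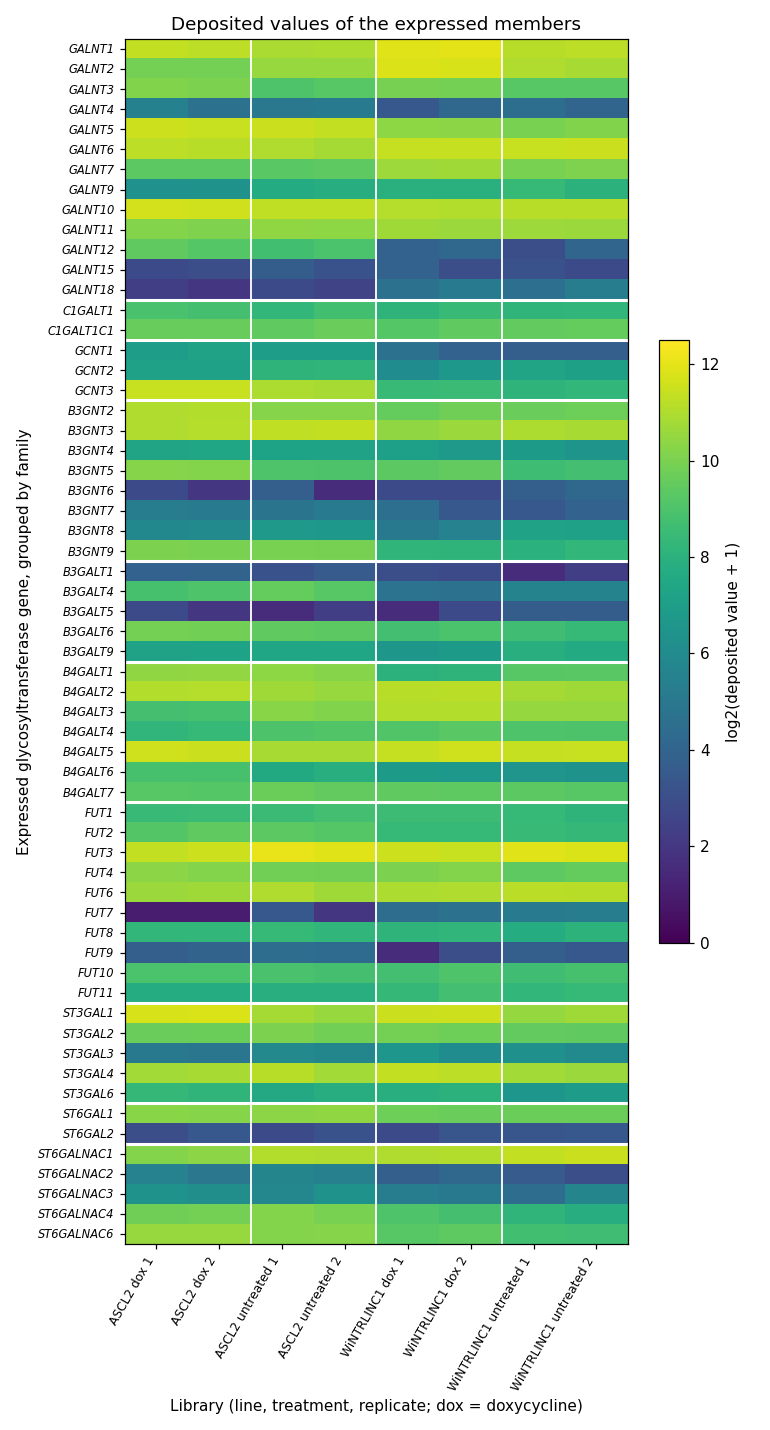
Each row is 1 of the 60 expressed genes, grouped by family, each column 1 library, and the colour is log2(value + 1). Within a line most rows hold their shade across the doxycycline and untreated columns, while GCNT3, B3GALT4 and GALNT12 differ mostly between the lines.

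Fold changes are on the scale of log2(value + 1), which understates the change of low genes, and a gene was called when the adjusted p from limma, with Benjamini-Hochberg adjustment over all 22100 genes, was under 0.05. In the ASCL2 line 28 of the 60 expressed members were called, 15 higher and 13 lower with doxycycline, beside 26.6% of all genes tested (13.9% higher and 12.7% lower). In the WiNTRLINC1 line 24 were called, 16 higher and 8 lower, beside 18.6% of all genes (9.54% higher and 9.03% lower). As shares of the members these were 46.7% and 40.0%. A larger share of genes at higher values was called, and among genes with a mean of at least 100 the shares were 55.6% of 45 members beside 39.3% of all such genes in the ASCL2 line, and 51.1% beside 28.2% in the WiNTRLINC1 line. The median log2 fold change of the 60 members was 0.01 for ASCL2-line cells and 0.16 for WiNTRLINC1-line cells, beside 0.01 in each line for all genes. Leaving out doxycycline replicate 1 of the ASCL2 line left 16 calls in that line, and fitting without a mean-variance trend left 18.

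By direction, 9 members rose in both lines: GALNT1, GALNT3, GCNT3, B3GNT5, B4GALT2, FUT4, ST3GAL1, ST3GAL6 and ST6GALNAC6. The 5 that fell in both were GCNT2, B3GNT3, B3GNT8, FUT3 and ST6GALNAC1. B4GALT3 and GALNT2 moved in opposite directions, lower with doxycycline in ASCL2-line cells and higher in WiNTRLINC1-line cells. Another 12 members were called in ASCL2-line cells alone and 8 in WiNTRLINC1-line cells alone, and 24 were called in neither. As shares of the 60 members, 15.0% rose in both lines, 8.33% fell in both, 3.33% fell in ASCL2-line and rose in WiNTRLINC1-line cells, 20.0% and 13.3% were called in ASCL2-line or WiNTRLINC1-line cells alone and 40.0% in neither. The same shares of all 22100 genes were 4.19%, 2.95%, 0.851%, 17.6%, 9.5% and 63.9%. With a mean of at least 100, they were 20.0% of members beside 6.83% of genes for a rise in both, and 8.89% beside 4.67% for a fall in both.

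**Figure D2:**
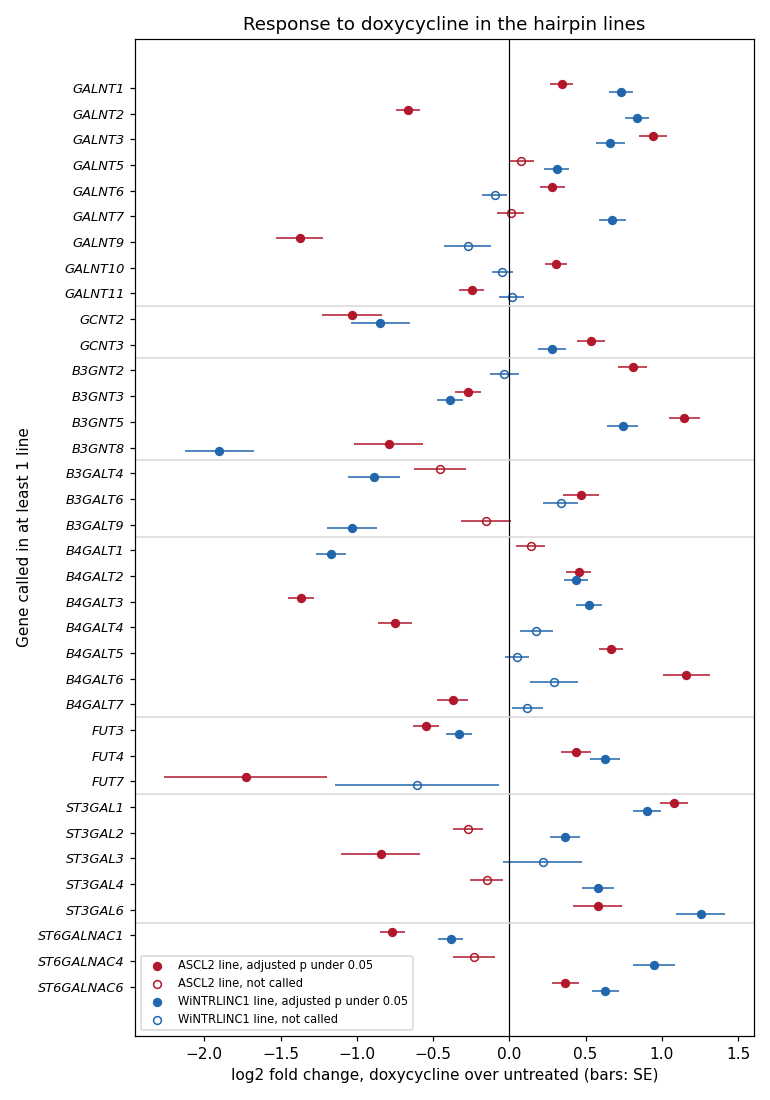
Log2 fold change of each member called in at least 1 line, doxycycline over untreated, with standard error bars, for the ASCL2 line and the WiNTRLINC1 line (2 libraries per group). B4GALT3 and GALNT2 lie on opposite sides of 0 in the 2 lines, and ST3GAL1, B3GNT5 and GALNT3 lie above 0 in both.

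The GALNT family starts the glycan. Of its 13 expressed members 4 rose and 3 fell with doxycycline in ASCL2-line cells, and 5 rose and 8 did not pass the test in the WiNTRLINC1 line. GALNT3 (ENSG00000115339, chromosome 2), which glycosylates FGF23 among other proteins, had 1131 and 1059 in doxycycline ASCL2-line cells, against 537 and 604 in untreated ones, and 974 and 958 in doxycycline WiNTRLINC1-line cells, against 613 and 607 in untreated ones. The doxycycline libraries were higher in both lines without overlap, by a log2 fold change of 0.94 ± 0.0939 (SE, adjusted p = 4.26e-06, limma) and of 0.66 ± 0.0939 (adjusted p = 0.000157).

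GALNT2 (ENSG00000143641, chromosome 1), a widely expressed GalNAc-transferase, had 951 and 962 in doxycycline ASCL2-line cells, against 1520 and 1514 in untreated ones. In the WiNTRLINC1 line it had 3694 and 3388 with doxycycline, against 2076 and 1888 without. The gene was thus lower in doxycycline cells of the ASCL2 line, by a log2 fold change of -0.66 ± 0.0808 (adjusted p = 2.82e-05), and higher in those of the WiNTRLINC1 line, by 0.84 ± 0.0808 (adjusted p = 4.49e-06). The difference between the 2 responses, WiNTRLINC1 minus ASCL2, was 1.50 ± 0.114 (adjusted p = 1.06e-06, limma).

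GALNT1 (ENSG00000141429, chromosome 18), the highest of the family per kilobase, rose in both lines, and by more in the WiNTRLINC1 line. It had 3851 and 4113 in doxycycline WiNTRLINC1-line cells, against 2319 and 2473 in untreated ones, and 2588 and 2406 in doxycycline ASCL2-line cells, against 1932 and 2006 in untreated ones. Its log2 fold change was 0.73 ± 0.0769 in the WiNTRLINC1 line and 0.34 ± 0.0769 in the ASCL2 line (adjusted p = 9.75e-06 and 0.00409), with a difference of 0.39 ± 0.109 (adjusted p = 0.0239). The ASCL2-line call was lost without doxycycline replicate 1 of that line, and the difference without untreated replicate 2 or doxycycline replicate 2 of the ASCL2 line or untreated replicate 1 or doxycycline replicate 2 of the WiNTRLINC1 line (highest adjusted p = 0.0591 and 0.146 over all alternatives).

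GALNT7 and GALNT9 changed in 1 line each, and their responses differed between lines. GALNT7 (ENSG00000109586, chromosome 4), which prefers peptides that already carry GalNAc, had 1641 and 1701 in doxycycline WiNTRLINC1-line cells, against 1012 and 1082 in untreated ones, a log2 fold change of 0.67 ± 0.0871 (adjusted p = 6.69e-05). It had 655 and 647 in doxycycline ASCL2-line cells, against 627 and 668 in untreated ones, and the groups overlapped. GALNT9 (ENSG00000182870, chromosome 12), known mainly from brain, had 80 and 81 in doxycycline ASCL2-line cells, against 204 and 217 in untreated ones, a log2 fold change of -1.38 ± 0.153 (adjusted p = 1.23e-05). It had 245 and 242 in doxycycline WiNTRLINC1-line cells, against 329 and 264 in untreated ones, where it did not pass the test (adjusted p = 0.254). The differences between the responses were 0.67 ± 0.123 for GALNT7 (adjusted p = 0.00175) and 1.10 ± 0.217 for GALNT9 (adjusted p = 0.00277).

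Smaller changes were called in 4 further GALNT genes. GALNT10 (log2 fold change 0.31 ± 0.0714) and GALNT6 (0.28 ± 0.0824) rose in the ASCL2 line, where GALNT11, which can glycosylate Notch1, fell (-0.25 ± 0.0815), and GALNT5 rose in the WiNTRLINC1 line (0.31 ± 0.0821). GALNT10 and GALNT6 also differed between the responses, by -0.35 ± 0.101 and -0.38 ± 0.117 (adjusted p = 0.0283 and 0.0416). The ASCL2-line calls were lost without doxycycline replicate 1 of that line, that of GALNT6 also without its untreated replicate 2 and that of GALNT11 without any 1 of its 4 libraries. The GALNT5 call was lost without untreated replicate 1 or either doxycycline replicate of the WiNTRLINC1 line. The differences of GALNT10 and GALNT6 were lost without most single libraries, 8 of 8 for GALNT10 and 7 of 8 for GALNT6, and under some scalings (highest adjusted p = 0.131 and 0.195). GALNT10 shares an exon interval with MFAP3, whose log2 fold change in the ASCL2 line was 0.91 ± 0.0972 (adjusted p = 8e-06). The submitters' sources do not say how reads in shared intervals were assigned, and the part of MFAP3 in the GALNT10 value was not tested. GALNT4, GALNT12, GALNT15 and GALNT18 did not pass the test in either line.

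Core 1 synthesis needs C1GALT1 and its chaperone C1GALT1C1, known as Cosmc. C1GALT1 (ENSG00000106392, chromosome 7) had 474 and 446 in doxycycline ASCL2-line cells, against 304 and 417 in untreated ones, and 281 and 348 in doxycycline WiNTRLINC1-line cells, against 292 and 302 in untreated ones. C1GALT1C1 (ENSG00000171155, chromosome X) had 779 and 765 in doxycycline ASCL2-line cells, against 700 and 805 in untreated ones, and 580 and 708 in doxycycline WiNTRLINC1-line cells, against 719 and 741 in untreated ones. Neither gene passed the test. The log2 fold changes in the ASCL2 line were 0.37 ± 0.152 for C1GALT1 (unadjusted p = 0.0287, adjusted p = 0.0890) and 0.04 ± 0.110 for C1GALT1C1 (adjusted p = 0.829), and in the WiNTRLINC1 line 0.07 ± 0.152 (adjusted p = 0.808) and -0.19 ± 0.110 (adjusted p = 0.281). C1GALT1 passed the test in the ASCL2 line once untreated replicate 2 was left out (log2 fold change 0.595), and had 0.141 without untreated replicate 1.

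Of the 3 expressed branching enzymes GCNT3 rose and GCNT2 fell in each line, and GCNT1, the core 2 enzyme first known from leukocytes, did not pass the test. GCNT3 (ENSG00000140297, chromosome 15), the mucin-type enzyme that makes core 2 and core 4 branches, had 2782 and 2795 in doxycycline ASCL2-line cells, against 1989 and 1854 in untreated ones, a log2 fold change of 0.54 ± 0.0920 (adjusted p = 0.000550). In the WiNTRLINC1 line it had 350 and 364 with doxycycline, against 278 and 311 without (0.28 ± 0.0920, adjusted p = 0.0477). The doxycycline libraries were above the untreated ones in both lines, and the call in the WiNTRLINC1 line was lost in 10 of 18 alternatives, among them leaving out any 1 library but untreated replicate 2 of that line (highest adjusted p = 0.254). GCNT2 (ENSG00000111846, chromosome 6), which makes the I-antigen branch, had 140 and 140 in doxycycline ASCL2-line cells, against 282 and 293 in untreated ones, and 66 and 101 in doxycycline WiNTRLINC1-line cells, against 158 and 138 in untreated ones. It was lower in both lines without overlap, by log2 fold changes of -1.03 ± 0.195 (adjusted p = 0.00115) and -0.85 ± 0.195 (adjusted p = 0.00670). The WiNTRLINC1-line call was lost without untreated replicate 1 or doxycycline replicate 1 of that line, and without doxycycline replicate 1 its log2 fold change was -0.544.

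All 8 B3GNT genes, which extend chains with N-acetylglucosamine, were expressed. With doxycycline 2 rose and 2 fell in ASCL2-line cells, and 1 rose and 2 fell in WiNTRLINC1-line cells. B3GNT5 (ENSG00000176597, chromosome 3), which begins the lacto-series of glycolipids, had 1187 and 1147 in doxycycline ASCL2-line cells, against 535 and 518 in untreated ones, and 657 and 727 in doxycycline WiNTRLINC1-line cells, against 390 and 437 in untreated ones. It was higher with doxycycline in both lines, by log2 fold changes of 1.15 ± 0.100 (adjusted p = 1.25e-06) and 0.74 ± 0.100 (adjusted p = 0.000103). B3GNT2 (ENSG00000170340, chromosome 2), a main poly-N-acetyllactosamine synthase, had 2050 and 2151 in doxycycline ASCL2-line cells, against 1203 and 1193 in untreated ones (log2 fold change 0.81 ± 0.0951, adjusted p = 2.07e-05). In the WiNTRLINC1 line it had 737 and 873 with doxycycline, against 787 and 857 without, and the difference between the responses was -0.84 ± 0.134 (adjusted p = 0.000542).

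B3GNT8 (ENSG00000177191, chromosome 19), which forms a complex with B3GNT2, moved the other way. It had 57 and 60 in doxycycline ASCL2-line cells, against 104 and 100 in untreated ones, and 32 and 45 in doxycycline WiNTRLINC1-line cells, against 146 and 143 in untreated ones. The log2 fold changes were -0.79 ± 0.224 (adjusted p = 0.0165) and -1.90 ± 0.224 (adjusted p = 2.90e-05), and their difference was -1.11 ± 0.317 (adjusted p = 0.0274). The ASCL2-line call was lost without any 1 library of that line (highest adjusted p = 0.0814), and the difference without any 1 library but doxycycline replicate 2 of the WiNTRLINC1 line (highest adjusted p = 0.0993). B3GNT3, the core 1 extension enzyme and the highest B3GNT per kilobase, fell by 0.27 on the log2 scale in the ASCL2 line and by 0.39 in the WiNTRLINC1 line (adjusted p = 0.0289 and 0.00506). Its ASCL2-line call was lost without any 1 library of that line, and its WiNTRLINC1-line call without replicate 1 of either WiNTRLINC1 group. B3GNT6, the core 3 synthase of normal colon, had values of 2 to 17 and did not pass the test.

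ASCL2 is a factor of a class that binds E-box sequences, so the promoters of the members (RefSeq, GRCh38.p14, from 250 bases before to 50 after the start) were searched for the E-box CAGCTG, which reads the same on both strands. It was found in 5 of the 53 members with an entry (9.43%), beside 4844 of 27305 promoters (17.7%), and in 3 of the 29 matched members called in either line, namely GALNT1, FUT3 and B3GNT8. The motif CTTTGA, read by TCF factors of the Wnt pathway and searched on both strands, was found in 4 of 53 members (7.55%), beside 13.1% of all promoters. Both shares lay under those of all promoters. Of the 3 called members with CAGCTG, GALNT1 rose in both lines and is not shown. The promoters of B3GNT8 (chr19:41428681-41428980, minus strand) and FUT3 (chr19:5851400-5851699, minus strand), genes that fell in both lines, are shown 5′ to 3′ with the E-box in capitals.
B3GNT8: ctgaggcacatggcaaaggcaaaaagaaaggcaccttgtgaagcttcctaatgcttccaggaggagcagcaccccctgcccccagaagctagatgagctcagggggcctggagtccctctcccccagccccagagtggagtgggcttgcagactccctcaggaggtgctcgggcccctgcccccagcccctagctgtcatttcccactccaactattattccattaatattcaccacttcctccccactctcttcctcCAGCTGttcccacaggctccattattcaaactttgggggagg
FUT3: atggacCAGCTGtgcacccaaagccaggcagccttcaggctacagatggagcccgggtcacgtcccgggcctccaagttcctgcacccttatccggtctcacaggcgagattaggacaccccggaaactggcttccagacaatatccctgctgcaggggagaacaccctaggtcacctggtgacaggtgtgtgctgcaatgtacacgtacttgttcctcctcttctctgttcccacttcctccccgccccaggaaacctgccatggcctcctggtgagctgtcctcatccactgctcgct
In B3GNT8 the motif starts 8 bases after the gene's start, and in FUT3 it lies 244 bases before it. A match is a description of the letters and not evidence of binding.

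The B3GALT genes add galactose to make type 1 chains and glycolipid or proteoglycan structures, and 5 of 6 were expressed. B3GALT6, which acts on the proteoglycan linker, rose in the ASCL2 line by 0.47 ± 0.116 on the log2 scale (adjusted p = 0.00747), a call lost without untreated replicate 2 or either doxycycline replicate of that line. B3GALT4 (ENSG00000235863, chromosome 6), which acts on gangliosides, had 26 and 24 in doxycycline WiNTRLINC1-line cells, against 47 and 47 in untreated ones, a log2 fold change of -0.89 ± 0.171 (adjusted p = 0.00199). In the ASCL2 line it had 460 and 531 with doxycycline, against 748 and 616 without, and did not pass the test (adjusted p = 0.0625). The WiNTRLINC1-line call of B3GALT4 was lost with each line fitted alone (adjusted p = 0.0712, limma). B3GALT9 (ENSG00000214654, chromosome 9) had 97 and 111 in doxycycline WiNTRLINC1-line cells, against 232 and 196 in untreated ones, a log2 fold change of -1.03 ± 0.164 (adjusted p = 0.000398). It had 146 and 150 in doxycycline ASCL2-line cells, against 168 and 162 in untreated ones. The responses of B3GALT9 differed by -0.88 ± 0.231 (adjusted p = 0.0178), a call lost without replicate 1 of either WiNTRLINC1 group, either doxycycline replicate of the ASCL2 line or its untreated replicate 2 (highest adjusted p = 0.0790). FBXW2, which overlaps B3GALT9 on the opposite strand, was not called in either line.

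The B4GALT genes make type 2 N-acetyllactosamine, lactosylceramide and the proteoglycan linker. All 7 were expressed, 3 rose and 3 fell with doxycycline in ASCL2-line cells, 2 rose and 1 fell with doxycycline in WiNTRLINC1-line cells, and the responses of 6 differed between the lines. B4GALT3 (ENSG00000158850, chromosome 1) had 449 and 457 in doxycycline ASCL2-line cells, against 1238 and 1107 in untreated ones, and 2103 and 2104 in doxycycline WiNTRLINC1-line cells, against 1450 and 1476 in untreated ones. It was lower in doxycycline ASCL2-line cells by a log2 fold change of -1.37 ± 0.0851 (adjusted p = 4.71e-08), and higher in doxycycline WiNTRLINC1-line cells by 0.52 ± 0.0851 (adjusted p = 0.000496). The difference of 1.89 ± 0.120 (adjusted p = 2.86e-07) was the largest of the 19 that were called. PPOX, which overlaps it on the opposite strand, was not called in either line.

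B4GALT1 (ENSG00000086062, chromosome 9), the galactosyltransferase best known from N-glycans and lactose synthesis, had 259 and 283 in doxycycline WiNTRLINC1-line cells, against 599 and 621 in untreated ones, a log2 fold change of -1.17 ± 0.0970 (adjusted p = 1.04e-06). It had 1381 and 1416 in doxycycline ASCL2-line cells, against 1347 and 1197 in untreated ones (adjusted p = 0.330). B4GALT5 and B4GALT6, both lactosylceramide synthases, rose together in the ASCL2 line. B4GALT5 (ENSG00000158470, chromosome 20) had 3045 and 2906 in doxycycline ASCL2-line cells, against 1869 and 1881 in untreated ones, and 2681 and 3094 in doxycycline WiNTRLINC1-line cells, against 2724 and 2838 in untreated ones. B4GALT6 (ENSG00000118276, chromosome 18) had 469 and 471 in doxycycline ASCL2-line cells, against 195 and 226 in untreated ones, and 110 and 102 in doxycycline WiNTRLINC1-line cells, against 92 and 81 in untreated ones. Their log2 fold changes in the ASCL2 line were 0.67 ± 0.0811 (adjusted p = 2.90e-05) and 1.16 ± 0.155 (adjusted p = 6.69e-05), and neither passed the test in the WiNTRLINC1 line.

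B4GALT4 (ENSG00000121578, chromosome 3), which makes type 2 chains, had 303 and 328 in doxycycline ASCL2-line cells, against 518 and 544 in untreated ones, and 548 and 634 in doxycycline WiNTRLINC1-line cells, against 523 and 519 in untreated ones. It was lower in the ASCL2 line by a log2 fold change of -0.75 ± 0.110 (adjusted p = 0.000151). The responses differed by -1.31 ± 0.137 for B4GALT1, -0.61 ± 0.115 for B4GALT5, -0.87 ± 0.219 for B4GALT6 and 0.93 ± 0.156 for B4GALT4. B4GALT2 rose by 0.45 ± 0.0807 and 0.44 ± 0.0807 in the ASCL2 and WiNTRLINC1 lines. B4GALT7, of the proteoglycan linker, fell by 0.37 in the ASCL2 line (adjusted p = 0.0133), and its response differed by 0.49 ± 0.143 (adjusted p = 0.0316). The first call was lost without either doxycycline replicate or untreated replicate 1 of the ASCL2 line, and the second without any 1 library but untreated replicate 2 of the ASCL2 line. The difference of B4GALT6 was lost without either doxycycline replicate or untreated replicate 1 of the ASCL2 line (highest adjusted p = 0.0606). That of B4GALT5 was lost without a mean-variance trend (adjusted p = 0.0676, limma).

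Of 10 expressed FUT genes 1 rose and 2 fell with doxycycline in ASCL2-line cells, and 1 rose and 1 fell with doxycycline in WiNTRLINC1-line cells. FUT3 (ENSG00000171124, chromosome 19), the Lewis enzyme and the highest of the 60 members per kilobase in untreated cells of both lines, had 2606 and 2953 in doxycycline ASCL2-line cells, against 4321 and 3815 in untreated ones, and 2949 and 2841 in doxycycline WiNTRLINC1-line cells, against 3757 and 3528 in untreated ones. It fell in both lines, by log2 fold changes of -0.55 ± 0.0849 (adjusted p = 0.000239) and -0.33 ± 0.0849 (adjusted p = 0.0131), the second call lost without untreated replicate 1 or either doxycycline replicate of the WiNTRLINC1 line. FUT4 (ENSG00000196371, chromosome 11), which makes the Lewis x structure, had 1294 and 1147 in doxycycline ASCL2-line cells, against 916 and 886 in untreated ones, and 1050 and 1152 in doxycycline WiNTRLINC1-line cells, against 669 and 756 in untreated ones. It rose by 0.43 ± 0.0978 (adjusted p = 0.00409) and by 0.63 ± 0.0978 (adjusted p = 0.000348), the first call lost without doxycycline replicate 1 of the ASCL2 line (adjusted p up to 0.0639).

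FUT7 (ENSG00000180549, chromosome 9), of the sialyl Lewis x structure, had 1 and 1 in doxycycline ASCL2-line cells, against 10 and 3 in untreated ones, and 21 and 25 in doxycycline WiNTRLINC1-line cells, against 33 and 38 in untreated ones. The ASCL2-line call (adjusted p = 0.0270) rests on values near 0, its fold change depends on the pseudocount, and the call was lost in 8 of 17 alternatives, among them leaving out either doxycycline replicate or untreated replicate 1 of the ASCL2 line (highest adjusted p = 0.255). FUT3 shares 15.7% of its words of 50 bases with FUT5 or FUT6, so reads of these neighbours may be split between them. FUT6, which also makes Lewis structures, had adjusted p = 0.148 in both lines, and FUT2, the secretor enzyme, and FUT8, of core fucosylation, did not pass the test either.

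Of the 5 expressed ST3GAL genes, 2 rose and 1 fell with doxycycline in ASCL2-line cells, and 4 rose in the WiNTRLINC1 line. ST3GAL1 (ENSG00000008513, chromosome 8), which caps core 1, had 3408 and 3553 in doxycycline ASCL2-line cells, against 1787 and 1516 in untreated ones, and 2900 and 2984 in doxycycline WiNTRLINC1-line cells, against 1459 and 1696 in untreated ones. Its log2 fold changes were 1.08 ± 0.0935 (adjusted p = 1.13e-06) and 0.90 ± 0.0935 (adjusted p = 8.59e-06), with no overlap between doxycycline and untreated libraries in either line. ST3GAL6 (ENSG00000064225, chromosome 3), which caps type 2 chains, had 315 and 290 in doxycycline ASCL2-line cells, against 183 and 223 in untreated ones, and 238 and 263 in doxycycline WiNTRLINC1-line cells, against 93 and 117 in untreated ones. It rose by 0.58 ± 0.162 (adjusted p = 0.0158) and by 1.25 ± 0.162 (adjusted p = 6.87e-05), the first call lost without either doxycycline replicate or untreated replicate 1 of the ASCL2 line (highest adjusted p = 0.133). DCBLD2, which overlaps ST3GAL6 on the opposite strand and had values of 1159 to 7503, rose by 1.42 ± 0.0893 in the ASCL2 line and by 0.44 ± 0.0893 in the WiNTRLINC1 line. Whether the counting used strand is not given in the sources used here, so reads of the 2 genes cannot be told apart.

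ST3GAL4 (ENSG00000110080, chromosome 11), which caps lactosamine chains, had 2588 and 2425 in doxycycline WiNTRLINC1-line cells, against 1751 and 1598 in untreated ones, a log2 fold change of 0.58 ± 0.106 (adjusted p = 0.00130). It had 1763 and 1842 in doxycycline ASCL2-line cells, against 2282 and 1749 in untreated ones, and the groups overlapped. ST3GAL2, which acts on core 1 and gangliosides, rose by 0.37 ± 0.0971 in the WiNTRLINC1 line (adjusted p = 0.0157), a call lost without either untreated replicate or doxycycline replicate 1 of that line. The responses differed by 0.73 ± 0.150 for ST3GAL4 and 0.64 ± 0.137 for ST3GAL2. Without a mean-variance trend both differences and the WiNTRLINC1-line call of ST3GAL4 were lost. The ST3GAL4 difference was also lost with no filter on low values (highest adjusted p = 0.106 over all alternatives, limma). ST3GAL3 (ENSG00000126091, chromosome 1) had 32 and 29 in doxycycline ASCL2-line cells, against 58 and 53 in untreated ones, a log2 fold change of -0.84 ± 0.260 (adjusted p = 0.0260) whose call was lost without any 1 library of that line (highest adjusted p = 0.121), and 94 and 67 in doxycycline WiNTRLINC1-line cells, against 76 and 61 in untreated ones. Of the ST6GAL genes, ST6GAL1, which caps N-glycans, had adjusted p = 0.282 for ASCL2-line cells and 0.995 for WiNTRLINC1-line cells, and ST6GAL2 had values of 6 to 10.

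The ST6GALNAC genes add sialic acid to GalNAc or to sialylated chains, and 5 of 6 were expressed. ST6GALNAC1 (ENSG00000070526, chromosome 17), the sialyl-Tn synthase, had 1159 and 1278 in doxycycline ASCL2-line cells, against 2105 and 2038 in untreated ones, and 2079 and 2125 in doxycycline WiNTRLINC1-line cells, against 2612 and 2877 in untreated ones. It was lower in both lines, by less in the WiNTRLINC1 line, where the log2 fold change was -0.38 ± 0.0816 (adjusted p = 0.00405), and the responses differed by 0.38 ± 0.115 (adjusted p = 0.0361). That difference was lost without most single libraries, the exceptions being doxycycline replicate 2 of the ASCL2 line and untreated replicate 2 of the WiNTRLINC1 line (highest adjusted p = 0.168). The WiNTRLINC1-line call of ST6GALNAC1 was lost without a mean-variance trend (adjusted p = 0.0697, limma). ST6GALNAC4 (ENSG00000136840, chromosome 9), which makes disialylated core 1, had 529 and 451 in doxycycline WiNTRLINC1-line cells, against 293 and 218 in untreated ones, a log2 fold change of 0.95 ± 0.136 (adjusted p = 0.000171). In the ASCL2 line it had 896 and 940 with doxycycline, against 1158 and 1002 without (adjusted p = 0.241), and the responses differed by 1.18 ± 0.192 (adjusted p = 0.000643). This difference was lost without a mean-variance trend (adjusted p = 0.0559, limma). ST6GALNAC6 (ENSG00000160408, chromosome 9), which acts on gangliosides and the Lewis a chain, had 1523 and 1522 in doxycycline ASCL2-line cells, against 1153 and 1209 in untreated ones, and 615 and 677 in doxycycline WiNTRLINC1-line cells, against 422 and 412 in untreated ones. It rose in both, by 0.37 ± 0.0900 and 0.63 ± 0.0900 on the log2 scale, the first call lost without doxycycline replicate 2 or untreated replicate 1 of the ASCL2 line (highest adjusted p = 0.0517).

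**Figure D3:**
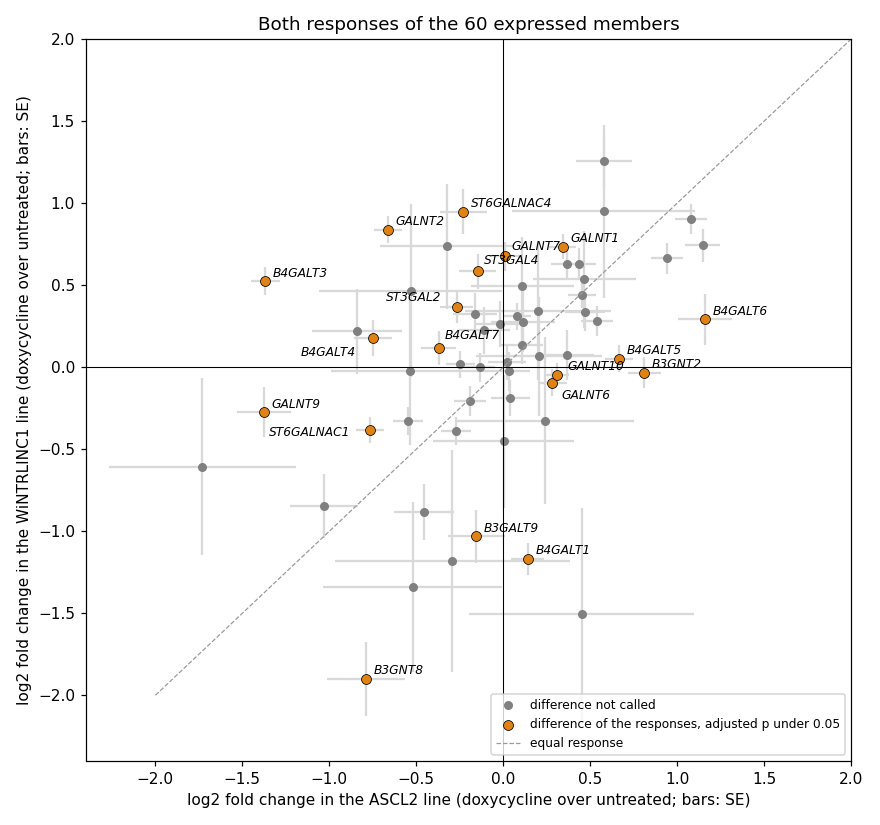
Log2 fold change with doxycycline in the WiNTRLINC1 line against that in the ASCL2 line for the 60 expressed members, with the members whose responses differed marked. B4GALT3, GALNT2 and ST6GALNAC4 lie above the diagonal and B4GALT1, B3GNT8 and B3GALT9 below it.

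The test of the difference itself called 19 of 60 members (31.7%), 11 with a more positive change in the WiNTRLINC1 line and 8 with a more negative one, beside 15.0% of all genes tested (7.39% more positive and 7.6% more negative). Among genes with a mean of at least 100 the shares were 40.0% of 45 members and 23.0% of all. The difference shares all 8 libraries with the comparisons above and is no separate evidence for them. The count was 12 without either doxycycline replicate of the ASCL2 line or without untreated replicate 1 of the WiNTRLINC1 line, and 9 without a mean-variance trend. No FUT or GCNT gene was among the 19, and 1 gene of those families, FUT1, had an unadjusted p under 0.05 (unadjusted p = 0.0166, adjusted p = 0.0864, limma).

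**Figure D4:**
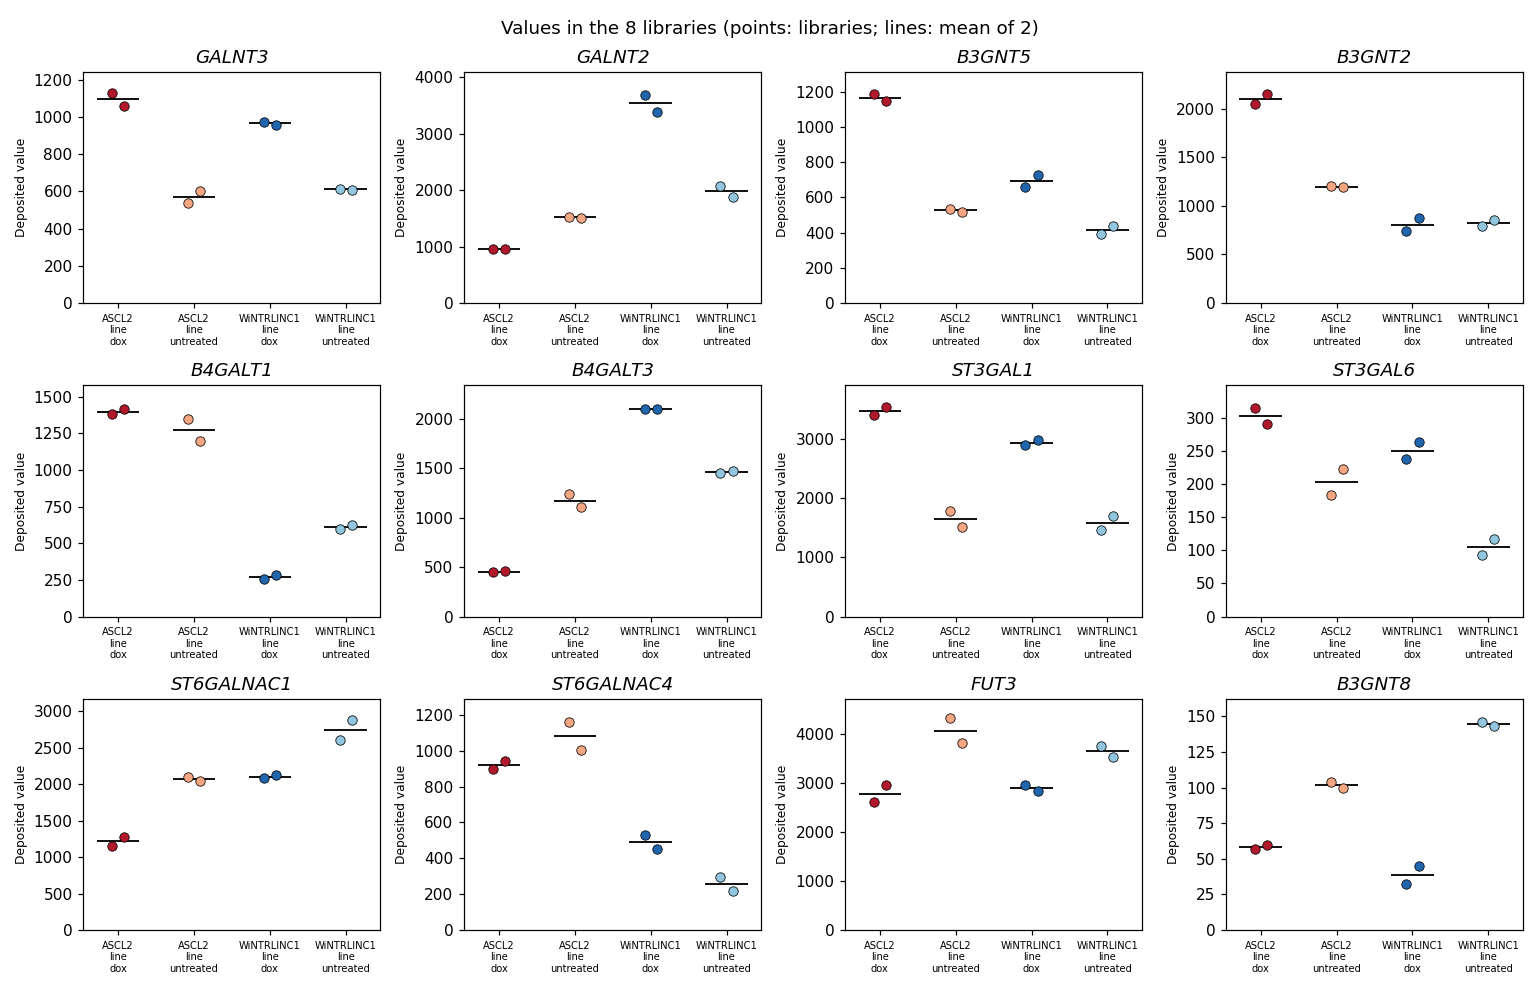
Values of selected members in each library, with 1 point per library and groups in the order doxycycline ASCL2, untreated ASCL2, doxycycline WiNTRLINC1 and untreated WiNTRLINC1. The 2 points of a group lie close together beside the gap between doxycycline and untreated cells for ST3GAL1, which has 3408 and 3553 against 1787 and 1516 in the ASCL2 line.

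The 2 untreated lines also differed from each other. Of the 60 members 42 were called (70.0%), 14 higher and 28 lower in the untreated WiNTRLINC1 line than in the untreated ASCL2 line, beside 55.2% of all genes tested (25.7% higher and 29.5% lower). With a mean of at least 100 the shares were 75.6% of 45 members and 66.9% of genes. The median log2 fold change of the 60 members was -0.31, beside -0.04 for all genes. GALNT12, a GALNT of the digestive tract, had 7 and 16 in untreated WiNTRLINC1-line cells, against 422 and 504 in untreated ASCL2-line cells, a log2 fold change of -5.31 ± 0.294 (adjusted p = 1.56e-09). GCNT3 had 278 and 311 against 1989 and 1854 (-2.70 ± 0.0920), and GCNT1 had 13 and 13 against 127 and 124 (-3.18 ± 0.296), in the same order. B3GALT4 had 47 and 47 against 748 and 616 (-3.82 ± 0.171). All 3 expressed GCNT genes were thus lower in the untreated WiNTRLINC1 line. The other large differences were ST6GALNAC2 (-2.27), ST6GALNAC4 (-2.09) and B3GNT9 (-1.85), lower in the WiNTRLINC1 line, and FUT7 (2.46), GALNT18 (2.22) and B3GALT5 (1.75), higher in it. B3GALT5 rested on values of 12 and 12 against 2 and 4, and its call was lost without untreated replicate 1 of the ASCL2 line (adjusted p = 0.157). Whether the lines differ by clone, by the hairpin they carry or by handling cannot be told apart.

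**Figure D5:**
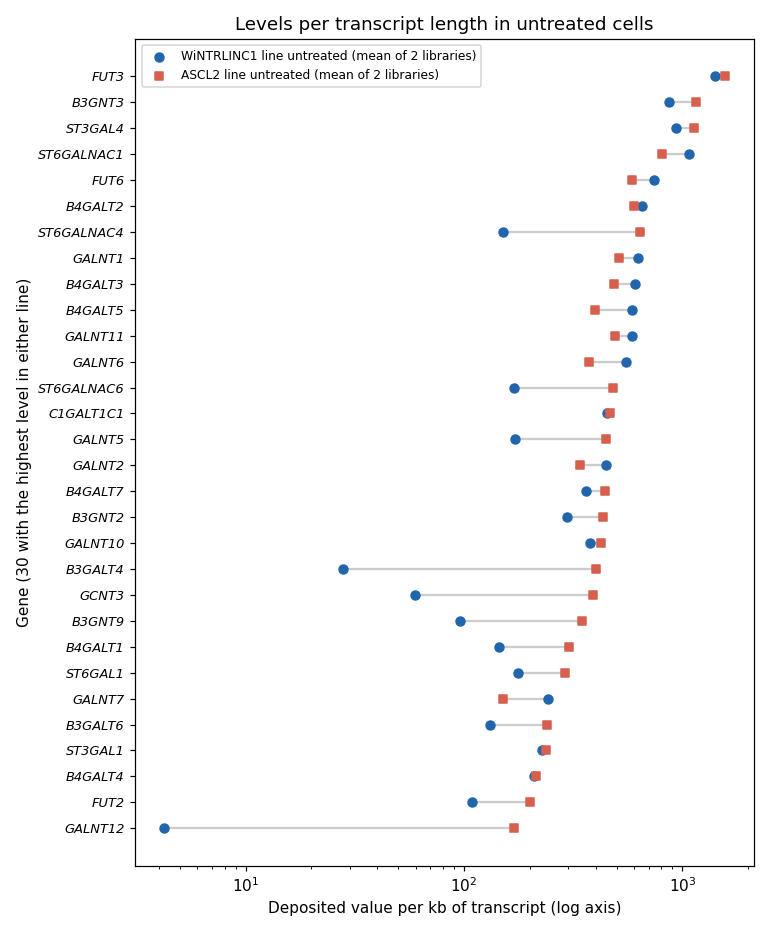
Deposited value per kilobase of principal transcript, on a log axis, for the 30 members with the highest level in either untreated line, with circles for the untreated WiNTRLINC1 line and squares for the untreated ASCL2 line (means of 2 libraries). FUT3 is highest in both lines, and GALNT12 and B3GALT4 show the widest gaps.

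Levels between genes were compared per kilobase of each gene's principal transcript (GENCODE 29). In untreated WiNTRLINC1-line cells the highest were FUT3 (1408), ST6GALNAC1 (1068), ST3GAL4 (935.5) and B3GNT3 (866.6), and in untreated ASCL2-line cells FUT3 (1572), B3GNT3 (1154), ST3GAL4 (1126) and ST6GALNAC1 (806.03), with the order set by group means of 2 libraries. Summed per kilobase, the GALNT family made 3443 in doxycycline and 3157 in untreated ASCL2-line cells, and 4282 and 3306 in the WiNTRLINC1 line. The FUT family made 2374 and 2904, and 2516 and 2782, and the ST3GAL family 1698 and 1555, and 2031 and 1301, in the same order. So within both lines the FUT sum was lower and the ST3GAL and GALNT sums were higher with doxycycline, as descriptions with no test. The B4GALT sum was also higher in both lines, and the B3GALT, ST6GAL and ST6GALNAC sums were also lower. The C1GALT1, GCNT and B3GNT sums were higher in the ASCL2 line and lower in the WiNTRLINC1 line. In the WiNTRLINC1 line some of these sums were nearly equal with and without doxycycline. They were 178.0 and 178.38 for ST6GAL, 1383 and 1399 for ST6GALNAC, and 97.09 and 99.11 for GCNT. FUT3 alone made 1074 in doxycycline and 1572 in untreated ASCL2-line cells, and 1119 and 1408 in the WiNTRLINC1 line.

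For genes that supply these enzymes or carry their products, the shares called are to be read beside 26.6% of all genes in ASCL2-line cells and 18.6% in WiNTRLINC1-line cells. Of 13 mucin genes tested, 1 rose and 2 fell with doxycycline in ASCL2-line cells, and 3 rose and 2 fell with doxycycline in WiNTRLINC1-line cells. These were 23.1% and 38.5% of the list. The membrane mucin MUC13 fell in both (log2 fold change -0.88 and -0.48). MUC6, the gel-forming mucin with the highest values of the list, had 31362 and 32015 in doxycycline WiNTRLINC1-line cells, against 42594 and 46332 in untreated ones, and fell there (-0.49), while it rose in ASCL2-line cells (0.24, adjusted p = 0.0484). The gel-forming MUC5AC (1.03) and MUC2 (0.46) rose in the WiNTRLINC1 line, and MUC5B fell in ASCL2-line cells (-0.65). Of 21 genes of sugar nucleotide supply 5 rose and 4 fell with doxycycline in ASCL2-line cells, with GNE, which begins sialic acid synthesis, at -1.20. In WiNTRLINC1-line cells 3 rose and 5 fell with doxycycline, and GNE did not pass the test. UAP1 fell in both lines (-0.45 and -0.50). Of 12 N-glycan branching genes 5 rose and 1 fell with doxycycline in ASCL2-line cells, and 2 rose and 4 fell with doxycycline in WiNTRLINC1-line cells. Among them MGAT4B rose in ASCL2-line cells (0.88) and fell in WiNTRLINC1-line cells (-0.40), while MGAT5 fell in both (-0.36 and -0.60). Of 16 other terminal and branching enzymes 3 rose and 2 fell with doxycycline in ASCL2-line cells, and 3 rose in the WiNTRLINC1 line, among them CHST3, a sulfotransferase, at 1.78. The shares called in ASCL2-line and WiNTRLINC1-line cells were 42.9% and 38.1% for sugar nucleotide supply, 50.0% and 50.0% for N-glycan branching and 31.2% and 18.8% for the other enzymes.

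Of 10 goblet cell regulators 2 rose and 5 fell with doxycycline in ASCL2-line cells. KLF4 and FOXA2 rose there, and ATOH1, FOXA1, FOXA3, CREB3L1 and HES1 fell. With doxycycline in WiNTRLINC1-line cells 2 rose, KLF4 and HES1, and 1 fell, ATOH1. ATOH1, the secretory lineage factor, had 3 and 0 in doxycycline ASCL2-line cells, against 27 and 20 in untreated ones, and 9 and 14 in doxycycline WiNTRLINC1-line cells, against 58 and 74 in untreated ones. Of 7 goblet markers tested, 4 fell in ASCL2-line cells (57.1%), namely TFF3, ATOH1, ZG16 and SPINK4. Apart from TFF3 these calls rest on low values. ZG16 had 5 and 2 in doxycycline ASCL2-line cells, against 18 and 11 in untreated ones, and SPINK4 had 19 and 7, against 48 and 24. The calls on the regulator and marker lists were not tried under the alternatives. AGR2 (0.19), SPDEF (0.44) and MUC2 (-0.22) did not pass the test there. MUC2 rose and ATOH1 fell in WiNTRLINC1-line cells (28.6%), where the other 5 did not pass the test. SPDEF, ATOH1 and AGR2 are on both the regulator and the marker list, so the counts of these lists are not separate. The part of these regulators and markers in the glycosyltransferase changes was not tested.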

How the data were processed

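RNA from LS174T cells was isolated with Trizol, made into libraries with an Ion Total RNA-Seq kit that cuts RNA with RNase III and sequenced on an Ion Proton, per the labels' protocols. The submitters' processing notes name cutadapt, TopHat2 2.0.9, Cufflinks and DESeq, and the builds hg19, GRCh37 and mm9, with no role given. How reads were counted, and whether strand was used, is not stated in the labels. The authors deposited 1 table per library of whole-number scores per Ensembl gene. Earlier work on these data found the scores to be rounded scaled counts and not raw counts, and this was not tested again here. The scores carry no raw depth, so a count model was not used, and no counting interval is given.

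Values were tested as log2(value + 1) with limma 3.58.1 in R 4.3.3 (empirical Bayes with a mean-variance trend, 4 residual degrees of freedom), 4 groups of 2 libraries in 1 fit, on the 22100 genes with at least 10 in at least 2 libraries, with Benjamini-Hochberg adjustment over all of them and a call at an adjusted p under 0.05. The procedure was tested on simulated data. Comparisons were doxycycline over untreated in each line, the difference of the 2, and untreated WiNTRLINC1 over untreated ASCL2. The members and lists were chosen with earlier results of these data known. Every member called in a doxycycline comparison or in the difference is named. Those with a log2 fold change of at least 0.5 in size, and C1GALT1 and C1GALT1C1, are given in all 8 libraries. The 10 largest called differences between untreated lines and up to 4 called genes per further list and comparison are named. Every goblet cell regulator called in a doxycycline comparison is named. Only some of the called colon epithelial markers are named. Symbols were matched to 39501 identifiers; unmatched ones held 2.34% of all values. Lengths and overlaps are from GENCODE 29. Of the members, 36 have an exon that overlaps another gene, 30 of them a gene on the opposite strand. FCGBP and PECAM1, planned as markers, were not matched. Alternatives were other pseudocounts, filters, scalings, no trend, a replicate block, each line alone and leaving out each library.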

Additional observations from a re-analysis of the deposited data

Results flagged for a closer look

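In 19 members the response to doxycycline differed between the lines by a test of the difference itself (limma interaction, adjusted p under 0.05). Values are log2 fold changes in the WiNTRLINC1 line minus those in the ASCL2 line. The change was more positive in the WiNTRLINC1 line for B4GALT3 (1.89), GALNT2 (1.50), ST6GALNAC4 (1.18), GALNT9 (1.10), B4GALT4 (0.93), ST3GAL4 (0.73), GALNT7 (0.67), ST3GAL2 (0.64), B4GALT7 (0.49), GALNT1 (0.39) and ST6GALNAC1 (0.38). It was more negative there for B4GALT1 (-1.31), B3GNT8 (-1.11), B3GALT9 (-0.88), B4GALT6 (-0.87), B3GNT2 (-0.84), B4GALT5 (-0.61), GALNT6 (-0.38) and GALNT10 (-0.35).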

How the results depend on the processing

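Of the members called in the ASCL2 line 15 of 28 kept their call under every alternative, as did 15 of 24 in the WiNTRLINC1 line, 7 of 19 differences and 9 of the 10 named differences between untreated lines. Without a mean-variance trend the counts were 18 in the ASCL2 line and 9 for the difference. Leaving out 1 library gave 16 to 28 calls in the ASCL2 line, 18 to 24 in the WiNTRLINC1 line, 12 to 16 for the difference and 33 to 43 between untreated lines. Direction reversed only for uncalled values: C1GALT1C1 in the ASCL2 line was -0.0039 after scaling to equal totals and ranged from -0.0604 to 0.141 as 1 library was left out, and C1GALT1 in the WiNTRLINC1 line ranged from -0.0794 to 0.2281. The causes were not tested. The labels do not say that replicate numbers pair samples, and the deviations of same-numbered libraries correlated at -0.052 for the ASCL2 line and 0.105 for the WiNTRLINC1 line over 22100 genes, and at -0.143 and 0.302 over the 13215 genes with a mean of at least 100. With the replicate number as a block the counts were 28, 24, 19 and 43. With the numbers crossed in the ASCL2 line, an alternative chosen after seeing the data, they were 32, 26, 23 and 45. Values near 0, such as those of FUT7 and B3GALT5, limit what these 2 libraries per group can show.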
